A study of Equus caballus with 6 samples.

Results

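The genes described here are targets of the transcription factor p53 and parts of the apoptosis machinery, measured in the inner cell mass (ICM) and the trophectoderm (TE) of the horse blastocyst. They were chosen by gene symbol from a list of 39 names, of which 33 have a row among the 12270 rows of the deposited table. BBC3, BAD, BIK, BCL2, TNFRSF10B and TIGAR were not analysed here. Blastocysts were flushed on day 8 from mares that had been superovulated, and both tissues came from this one kind of embryo, with no other treatment or genotype given. After digestion with Pronase the TE, the outer epithelium that goes on to form placenta, was cut off mechanically. The ICM, the cells inside the blastocyst, was freed from outer cells by immunosurgery, which uses antibody and complement to lyse the cells they reach. There were 3 libraries of ICM (15, 22 and 25) and 3 of TE (16, 23 and 24), each from part of an individual blastocyst and made from amplified cDNA, and neither the mares nor any pairing of ICM and TE is named, so a p-value reflects only how far these libraries spread. Isolation method and tissue cannot be told apart in any difference below. In bulk tissue, fewer cells of a type and less RNA per cell cannot be told apart either.

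p53 is held low by the ubiquitin ligase MDM2 and its relative MDM4, and when DNA is damaged or cells are stressed it switches on genes that halt the cell cycle, repair DNA or start apoptosis. MDM2 is itself a p53 target. Apoptosis starts either at death receptors, through FADD and caspase-8, or at mitochondria, where BH3-only proteins release the pore formers BAX and BAK1 from survival proteins such as BCL-XL and MCL1, so that cytochrome c leaves and joins APAF1 and caspase-9. Inhibitor of apoptosis proteins (IAPs) such as XIAP hold caspases back, and DIABLO, released with cytochrome c, removes them. Some cells of the blastocyst die by apoptosis in normal development, in the ICM more than elsewhere in the species best studied.

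The libraries held 6526212 to 10686659 reads in the genes of the table. Levels are in RPKM, the reads of a gene for each kilobase of its length, adjusted to the depth of the library, and can be compared between genes. ICM 25 stood apart from the other ICM libraries. Summed over the 8 epiblast markers with a row (of 9), ICM 15 and 22 held 158 and 152 RPKM, ICM 25 held 60.2 and the TE libraries 45.5 to 73.1. The 7 hypoblast markers with a row (of 8) summed to 80.8 and 83.4 RPKM in ICM 22 and 15, to 24.8 in ICM 25 and to 23.0 to 32.3 in TE. For the 8 trophectoderm markers with a row (of 10), ICM 25 lay with the other ICM libraries (48.8 RPKM, against 40.8 and 68.7 in ICM 15 and 22 and 150 to 190 in TE). Of blood and immune markers, 3 of 12 had a row, and they summed to 3.35 RPKM in ICM 25 and 1.28 to 1.92 in the others. In ICM 25 most of this sum was the B cell marker CD79A (3.02 RPKM, against 0.22 to 1.01 in the others), while CD3E was at 0 there. Markers of endometrium and cumulus cells (2 of 8 with a row) summed to 1.52 to 5.17 RPKM over all libraries, with 4.05 in ICM 25. Results that rest on ICM 25 are given with and without it.

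Levels differed far more between the genes than between the tissues. CYCS, which encodes cytochrome c, was the most abundant, with 233 ± 87.5 RPKM in ICM and 357 ± 25.7 in TE (means with SD, n = 3 a tissue), rank 138 and 90 among the 12270 rows. CCNG1, which encodes cyclin G1 and is a p53 target, came next with 155 ± 48.8 and 86.4 ± 15.4 RPKM. At the other end, CASP9 stood at 0.64 ± 0.26 and 0.73 ± 0.06 RPKM, so the apoptosome's caspase was the scarcest transcript of the 33 in ICM, and CDKN1A was the scarcest in TE. The same 8 genes were above 10 RPKM in both tissues: CYCS, CCNG1, DIABLO, GADD45A, BAK1, PERP, MDM4 and PDCD5. Along the order of mean levels, the ranges of neighbouring genes were apart for 1 of 32 pairs in ICM (CCNG1 above DIABLO) and for 5 of 32 in TE, so most neighbours did not differ beyond their spread. The plot of levels in each library shows this order by role.

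**Figure D1:**
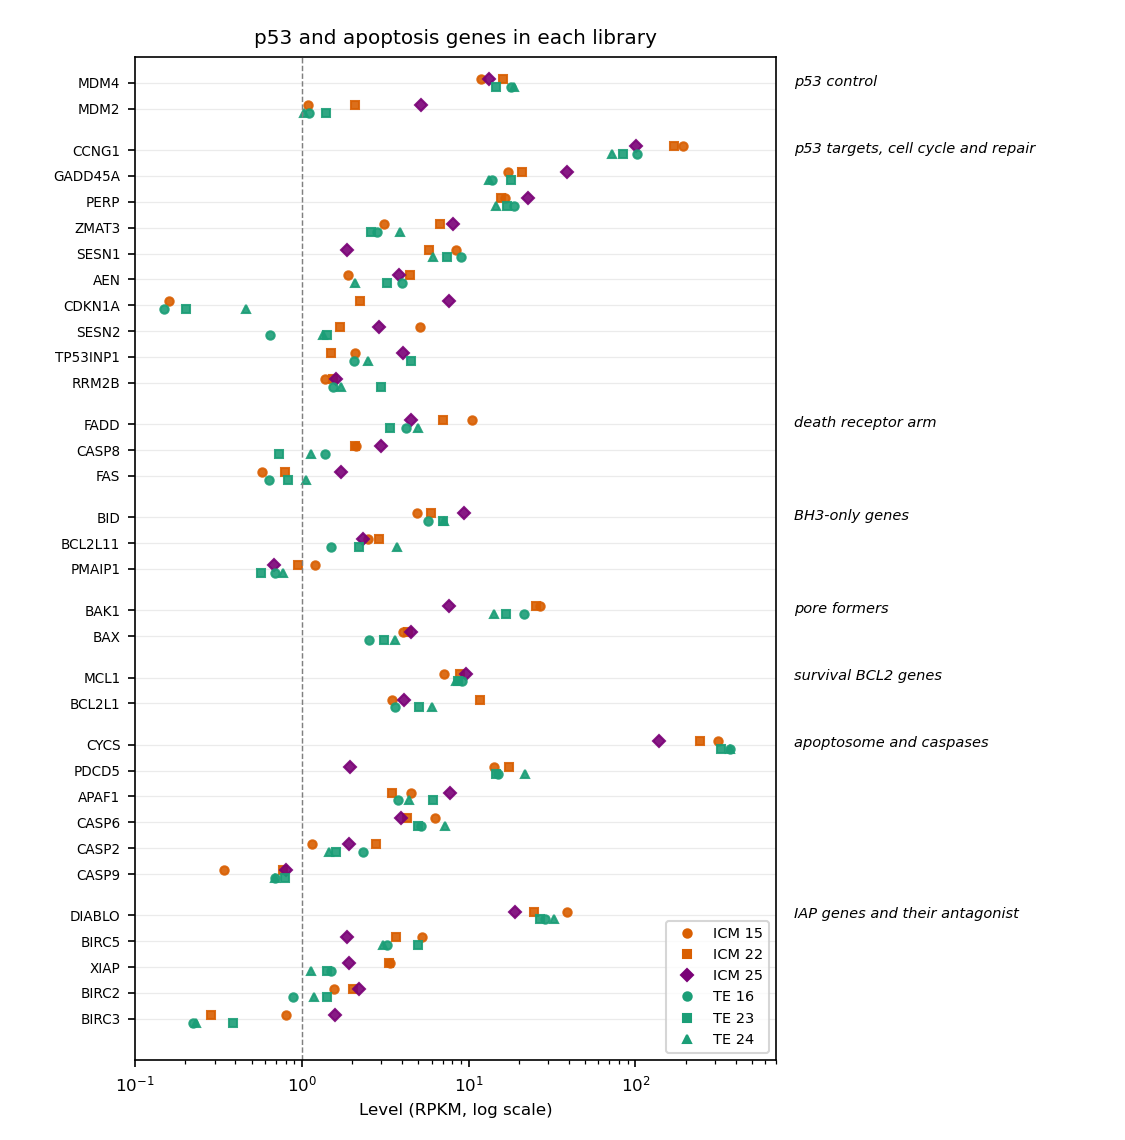
Level in RPKM on a log axis of each of the 33 genes in each of the 6 libraries, grouped by role and ordered by mean ICM level; ICM libraries are drawn above TE libraries of the same gene, ICM 25 as diamonds, and the dashed line marks 1 RPKM. CYCS and CCNG1 lie above all other genes in the TE libraries, and CDKN1A spans 0.159 to 7.68 RPKM within ICM.

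To ask which of these genes differ between the tissues, log2(RPKM + 1) was fitted with limma over all genes that reached 1 RPKM in 3 or more libraries. Of the 33 genes, 28 passed this filter. CDKN1A, FAS, PMAIP1, CASP9 and BIRC3 did not, and their differences come from the same fit without a filter. None of the 28 was called at an adjusted p of 0.05 (limma, Benjamini-Hochberg over 9436 genes, lowest adjusted p = 0.196), where 1.87% of all genes were called. At an unadjusted p under 0.05 there were 4 (SESN2, CASP8, XIAP and CCNG1, all with higher means in ICM), where 16.9% of all genes had one. With voom on the reads recovered from the table, 0 of the 28 were called, against 2.07% of all genes (1.32% higher in ICM and 0.742% in TE), while an unadjusted p under 0.05 was found for 7, and for 18.1% of all genes. With library weights, which count a variable library less, 1 of the 28 was called (CCNG1, higher in ICM), against 8.05% of all genes (3.87% higher in ICM and 4.19% in TE).

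All 3 ICM values lay above all 3 TE values for 5 of the 28 genes (SESN2, CASP8, BAX, XIAP and BIRC2), which was so for 6.81% of all genes tested. All lay below for 1 (CYCS), against 17.8% of all genes. These shares of all genes depend on the scaling. After rescaling by the median of ratios they were 12.8% and 12%, and 7 of the 28 genes then lay above TE in all ICM libraries, with CCNG1 and FADD added, and 1 below. The median log2 difference, ICM minus TE, was 0.08 over the 28 genes and -0.15 over all genes tested. Rescaling moved both, to 0.22 and 0.01.

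Without ICM 25, 2 of the 28 were called, CCNG1 and XIAP, both higher in ICM, where the test called 5.89% of all genes as higher in ICM and 5.62% in TE. In the same fit 6 of the 28 had an unadjusted p under 0.05, as did 27.8% of all genes. Leaving out any other library called none of the 28, but those fits called few genes at all. Over all genes tested they called 0 to 30 as higher in ICM and 0 to 46 in TE.

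**Figure D2:**
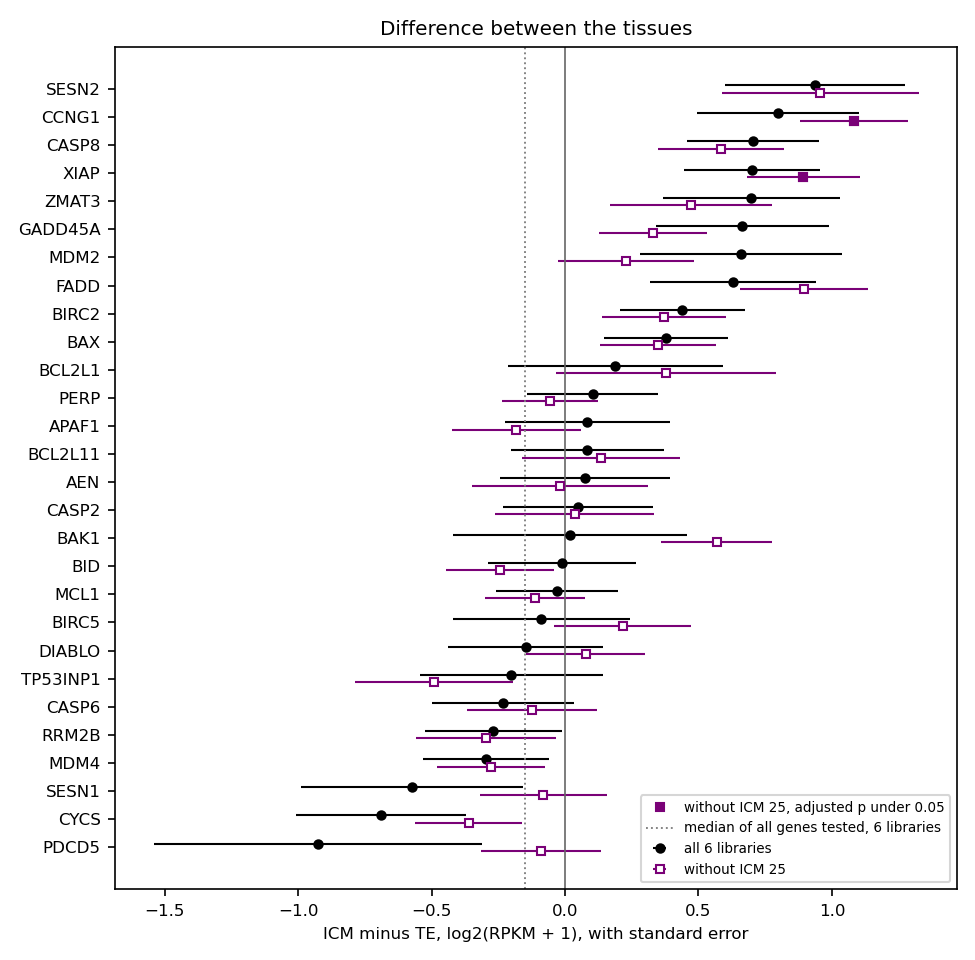
Difference between ICM and TE in log2(RPKM + 1) with its standard error for the 28 genes tested, in all 6 libraries (black circles) and without ICM 25 (squares, filled where the limma adjusted p is under 0.05); the dotted line is the median of all genes tested, -0.15. CCNG1 and XIAP are the filled squares, and BAK1, PDCD5 and SESN1 move furthest between the fits.

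The regulators of p53 came first. MDM2 held 1.09, 2.09 and 5.22 RPKM in ICM 15, 22 and 25, and 1.10, 1.40 and 1.03 in TE 16, 23 and 24. ICM 15 lay among the TE libraries and ICM 25 far above all others. The log2 difference was 0.66 (SE 0.38, limma adjusted p = 0.42) and became 0.23 (SE 0.25, adjusted p = 0.61) without ICM 25. MDM4, which binds p53 without degrading it alone, was more abundant, at 11.9, 16.0 and 13.3 RPKM in ICM and 17.9, 14.6 and 18.6 in TE. These ranges overlapped (log2 difference -0.30, SE 0.24, adjusted p = 0.58). The ratio of MDM4 to MDM2 within a library does not depend on how libraries are scaled. It was 10.9, 7.67 and 2.54 in ICM 15, 22 and 25 and 16.3, 10.5 and 18.1 in TE, with ICM 15 inside the TE range.

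The p53 targets that halt the cell cycle or act in repair showed different patterns. CCNG1 (chromosome 14, 16852886 to 16858750 in coordinates of the deposited table, for which no build is named) stood at 194, 170.3 and 100.4 RPKM in ICM 15, 22 and 25 and at 103, 84.1 and 72.2 in TE 16, 23 and 24. ICM 15 and 22 were above every TE library, and ICM 25 just below TE 16. The log2 difference was 0.80 (SE 0.30, limma adjusted p = 0.23). Without ICM 25 it was 1.08 (SE 0.20, adjusted p = 0.016), and with library weights 0.95 (SE 0.25, adjusted p = 0.039). Over the other alternatives its adjusted p ran from 0.062 to 0.59.

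SESN2 (chromosome 2, 27703106 to 27719871) encodes a sestrin, a stress protein that restrains the growth kinase mTORC1. Its ICM libraries held 5.15, 1.70 and 2.91 RPKM and its TE libraries 0.65, 1.41 and 1.33. All ICM values were above all TE values, with ICM 22 close to TE 23 (log2 difference 0.94, SE 0.34, limma adjusted p = 0.20). Its relative SESN1 lay the other way in its means, at 8.37, 5.79 and 1.87 RPKM in ICM and 9.04, 7.43 and 6.08 in TE. ICM 25 was the low library there (log2 difference -0.57, SE 0.42, adjusted p = 0.54, and -0.08 without ICM 25, SE 0.24, adjusted p = 0.86). Set against each other in a library, SESN1 was 1.62, 3.41 and 0.64 times as abundant as SESN2 in ICM and 13.98, 5.27 and 4.57 times in TE, and the tissues did not overlap.

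CDKN1A (chromosome 20, 36569233 to 36571106), the p21 inhibitor of cyclin-dependent kinases and the best known p53 target, varied widely within ICM. It held 0.159, 2.22 and 7.68 RPKM in ICM 15, 22 and 25, from 2, 34 and 95 reads, and 0.149, 0.203 and 0.461 RPKM in TE 16, 23 and 24, from 2, 2 and 6 reads. ICM 15 was at the TE level, so the tissues overlapped. Without a filter the log2 difference was 1.33 (SE 0.60, limma adjusted p = 0.28), or 0.61 without ICM 25 (SE 0.39, adjusted p = 0.34) and 2.06 without ICM 15 (SE 0.41, adjusted p = 0.093). In the authors' deposited table, CDKN1A has a fold of 12.4 and an adjusted p of 1.76e-06.

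GADD45A, a growth arrest gene of the DNA damage response, and ZMAT3, an RNA-binding zinc finger protein induced by p53, shared the high value in ICM 25. GADD45A stood at 17.2, 20.8 and 38.99 RPKM in ICM and 13.8, 18.0 and 13.2 in TE. ICM 15 lay below TE 23 (log2 difference 0.66, SE 0.32, limma adjusted p = 0.35, and 0.33 without ICM 25, adjusted p = 0.34). ZMAT3 stood at 3.11, 6.72 and 8.02 RPKM in ICM and 2.82, 2.59 and 3.88 in TE. Here ICM 22 was also above TE, and ICM 15 below TE 24 (log2 difference 0.70, SE 0.33, adjusted p = 0.33).

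Of the remaining targets of this kind, PERP and AEN had close means, and TP53INP1 and RRM2B had higher means in TE. PERP, a membrane protein of desmosomes induced by p53, was at 18.3 ± 3.87 RPKM in ICM and 16.8 ± 2.03 in TE. AEN, a nuclease, was at 3.40 ± 1.34 and 3.11 ± 0.96 RPKM. TP53INP1, a nuclear stress protein, was at 2.55 ± 1.35 and 3.03 ± 1.31 RPKM, and RRM2B, the ribonucleotide reductase subunit used for repair, at 1.50 ± 0.12 and 2.07 ± 0.78. All 4 overlapped between the tissues, and their adjusted p ran from 0.65 to 0.94.

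**Figure D3:**
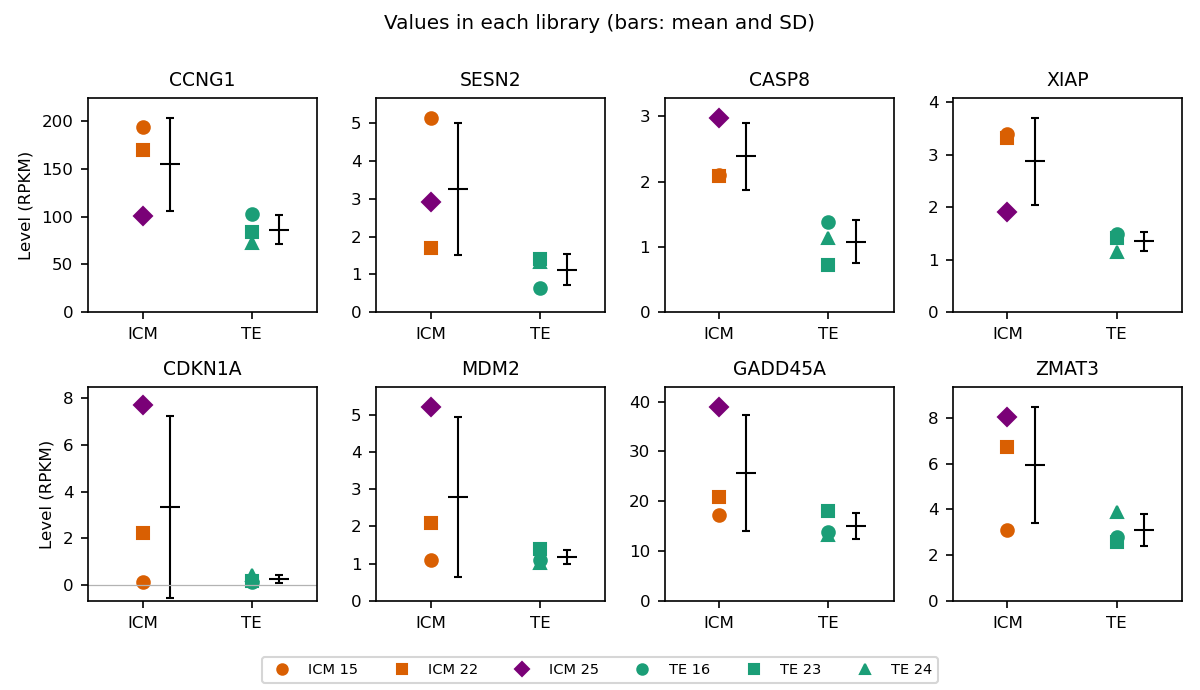
Level in RPKM (linear axes) of 8 genes in each ICM and TE library, with the mean and SD of the 3 libraries of a tissue beside the points. In the upper row SESN2, CASP8 and XIAP do not overlap between the tissues and CCNG1 does so through ICM 25 alone; in the lower row ICM 25 (diamond) holds the highest value of CDKN1A, MDM2, GADD45A and ZMAT3.

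In the death receptor arm, CASP8 (chromosome 18, 76310167 to 76329380), the initiator caspase bound by FADD, had the smallest p of the 28 genes. It stood at 2.10, 2.09 and 2.98 RPKM in ICM 15, 22 and 25 and at 1.39, 0.73 and 1.13 in TE 16, 23 and 24. Every ICM library was above every TE library, from 81 to 113 reads in ICM and from as few as 22 reads in TE 23. Its log2 difference was 0.71 (SE 0.25, limma adjusted p = 0.20). Over all the alternatives its adjusted p ran from 0.15 to 0.61. FADD, the adaptor between receptor and caspase, was at 10.5, 6.99 and 4.49 RPKM in ICM and 4.21, 3.40 and 4.95 in TE. ICM 25 lay inside the TE range and the other ICM libraries above it (log2 difference 0.63, SE 0.31, adjusted p = 0.35, and 0.90 without ICM 25, SE 0.24, adjusted p = 0.0505). The receptor gene FAS was low in both tissues, at 0.581 to 1.71 RPKM in ICM and 0.637 to 1.06 in TE, with its highest value in ICM 25.

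The mitochondrial arm gave 1 gene whose libraries did not overlap among the pore formers and BH3-only genes. BAX stood at 4.03, 4.31 and 4.51 RPKM in ICM and 2.52, 3.09 and 3.64 in TE. The ICM libraries lay close together and above all of TE (log2 difference 0.38, SE 0.23, limma adjusted p = 0.46). BAK1, the other pore former, was the more abundant in every library, at 26.9, 25.3 and 7.63 RPKM in ICM and 21.6, 16.7 and 14.3 in TE. ICM 25 was the lowest of all 6 and the other ICM libraries were above all TE libraries, so the log2 difference of 0.02 (SE 0.44, adjusted p = 0.99) became 0.57 without ICM 25 (SE 0.21, adjusted p = 0.12). It turned to -0.28 without ICM 15. BAK1 was 5.88 and 6.67 times as abundant as BAX in ICM 22 and 15, 3.93 to 8.55 times in TE and 1.69 times in ICM 25.

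Among the BH3-only genes, which sense damage and engage the BCL2 family, the tissues overlapped throughout. BID, which caspase-8 cuts to link both arms, was at 6.75 ± 2.36 RPKM in ICM and 6.61 ± 0.77 in TE. BCL2L11, which encodes BIM, was at 2.56 ± 0.30 and 2.48 ± 1.15. PMAIP1, the p53 target NOXA, was at 0.94 ± 0.26 and 0.68 ± 0.10 RPKM, from 20 to 54 reads in a library.

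Of the survival genes, MCL1 varied little. It held 7.16, 8.90 and 9.65 RPKM in ICM and 9.10, 8.65 and 8.41 in TE. The TE values lay inside the ICM range (log2 difference -0.03, SE 0.23, limma adjusted p = 0.97, with a positive sign of 0.13 to 0.15 after either rescaling or with voom). BCL2L1, which encodes BCL-XL, stood at 3.49, 11.7 and 4.09 RPKM in ICM and 3.60, 5.07 and 6.03 in TE. ICM 22 alone was high (log2 difference 0.19, SE 0.40, adjusted p = 0.86, and -0.28 without ICM 22). MCL1 was 1.39 to 2.53 times as abundant as BCL2L1 in the TE libraries and 2.05 and 2.36 times in ICM 15 and 25, but 0.76 times in ICM 22.

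Downstream of the mitochondria, CYCS was the 1 gene with TE above ICM in all libraries. It stood at 313, 245 and 139 RPKM in ICM 15, 22 and 25 and at 371, 327 and 372 in TE 16, 23 and 24. The gap between the lowest TE library and ICM 15 was smaller than the gap between ICM 15 and ICM 25 (log2 difference -0.69, SE 0.32, limma adjusted p = 0.32, and -0.36 without ICM 25, SE 0.20, adjusted p = 0.29). Cytochrome c genes have near-identical processed copies in mammalian genomes, so where the authors' counting placed shared reads is uncertain. APAF1, the scaffold that cytochrome c binds, was at 4.55, 3.50 and 7.70 RPKM in ICM and 3.77, 6.09 and 4.39 in TE. ICM 25 held the highest value, and the sign of the difference turned without it (log2 difference 0.08, SE 0.31, adjusted p = 0.93, and -0.18 without ICM 25, SE 0.24, adjusted p = 0.67). CYCS was 68.8 and 70.1 times as abundant as APAF1 in ICM 15 and 22, 53.7 to 98.4 times in TE and 18.1 times in ICM 25.

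CASP9 held 0.34, 0.77 and 0.81 RPKM in ICM and 0.69, 0.80 and 0.69 in TE, from 12 to 33 reads in ICM. Apart from the low ICM 15 the libraries were alike (log2 difference -0.09, SE 0.21, limma adjusted p = 0.86). CASP2, an initiator caspase, was at 1.95 ± 0.81 and 1.80 ± 0.47 RPKM and CASP6, an executioner, at 4.84 ± 1.30 and 5.82 ± 1.24. PDCD5, a small protein that promotes apoptosis, was at 14.2, 17.6 and 1.94 RPKM in ICM and 15.0, 14.5 and 21.9 in TE. The value of ICM 25, from 21 reads, set it apart from all others (log2 difference -0.93, SE 0.61, adjusted p = 0.50, and -0.09 without ICM 25, SE 0.23, adjusted p = 0.84).

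The IAP genes held 2 of the 6 genes whose libraries did not overlap. XIAP (chromosome X, 98391571 to 98407338), the strongest direct inhibitor of caspases in its family, stood at 3.38, 3.31 and 1.91 RPKM in ICM 15, 22 and 25 and at 1.49, 1.41 and 1.14 in TE 16, 23 and 24. ICM 15 and 22 were nearly equal and ICM 25 lay between them and TE (log2 difference 0.70, SE 0.26, limma adjusted p = 0.21). Without ICM 25 XIAP was higher in ICM by 0.89 (SE 0.21, adjusted p = 0.035), and over the other alternatives its adjusted p ran from 0.059 to 0.57. BIRC2, a ubiquitin ligase of the same family, was at 1.56, 2.03 and 2.21 RPKM in ICM and 0.89, 1.42 and 1.18 in TE. ICM 15 was just above TE 23 (log2 difference 0.44, SE 0.23, adjusted p = 0.39). Its close relative BIRC3 was lower, at 0.802, 0.285 and 1.59 RPKM in ICM and 0.224 to 0.388 in TE, where ICM 22 lay among the TE libraries.

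BIRC5, or survivin, works in the segregation of chromosomes and is made by dividing cells. It stood at 5.28, 3.69 and 1.88 RPKM in ICM and 3.22, 4.95 and 3.07 in TE. ICM 25 was the lowest library, and the log2 difference of -0.09 (SE 0.33, limma adjusted p = 0.93) had a positive sign without it (0.22, SE 0.26, adjusted p = 0.64). The 18 mitosis genes measured beside it summed, without rescaling, to 332 RPKM in ICM 25, 484 and 562 in ICM 15 and 22 and 549 to 573 in TE. Genes in general were lower in ICM 25, with a median difference from ICM 15 and 22 of -0.41 in log2(RPKM + 1) over all genes tested. The part of mitosis or of scaling in the BIRC5 values was not tested. DIABLO, the antagonist of IAPs, was at 39.03, 24.7 and 19.1 RPKM in ICM and 28.8, 26.9 and 32.7 in TE, and its means were close (27.6 ± 10.3 and 29.5 ± 2.92). Within a library, DIABLO was 7.46 to 11.5 times as abundant as XIAP in ICM and 19.1 to 28.6 times in TE. The tissues did not overlap in this ratio, and ICM 25, at 9.98, lay between the other ICM libraries. With 3 libraries against 3, an exact permutation test cannot give a two-sided p below 0.1, so the 6 ratios are given without a test. Their pairs were chosen after the values were seen.

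**Figure D4:**
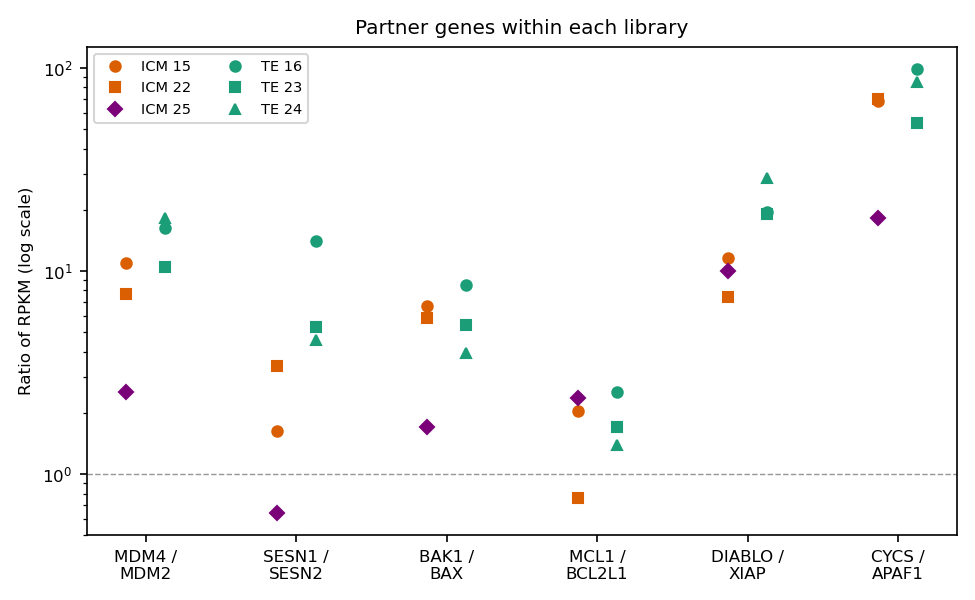
Ratio of the RPKM of 6 pairs of partner genes within each library, on a log axis, with ICM libraries left and TE libraries right in each pair and ICM 25 as diamonds; the dashed line marks equal levels. SESN1 to SESN2 and DIABLO to XIAP do not overlap between the tissues, and ICM 25 is the lowest library in 4 of the 6 ratios.

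ICM 25 held the highest value of the 6 libraries for 14 of the 33 genes, or 42.4%, where it did so for 13.3% of all rows. They were MDM2, CDKN1A, GADD45A, ZMAT3, PERP, FAS, CASP8, BID, BAX, MCL1, APAF1, CASP9, BIRC2 and BIRC3. By role, these were 1 of 2 p53 regulators, 4 of the 10 p53 targets of cell cycle and repair and 2 of 3 in the death receptor arm. They also held 1 of 3 BH3-only genes, 1 of 2 pore formers and 1 of 2 survival genes. The last were 2 of 6 in the group of apoptosome, caspases and PDCD5 and 2 of 5 among the IAP genes with DIABLO. It held the lowest value for 7 of the 33, or 21.2%, against 42.8% of all rows, and these were SESN1, BAK1, CYCS, CASP6, PDCD5, BIRC5 and DIABLO. With the libraries rescaled by their median of ratios, a step that divided ICM 25 by 0.734 and so lifted it, it was highest for 18 and lowest for 5 of the 33, against 29.2% and 22% of all rows. The genes were picked with earlier results of these data known and are not independent of each other, so these shares are a description of 1 library.

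Against the mean of ICM 15 and 22, ICM 25 differed by 2.17 log2 units for CDKN1A, 1.29 for MDM2, 1.01 for GADD45A and 0.87 for TP53INP1 on the log2(RPKM + 1) scale. At the other end stood PDCD5 (-2.51), BAK1 (-1.65) and SESN1 (-1.47). Over the 28 genes tested the median of this difference was -0.01, and over all genes tested -0.41. The spread among the ICM libraries, as the median SD of a gene in log2(RPKM + 1), was 0.49 for the 28 genes and 0.44 for all genes, and in TE it was 0.24 and 0.19. Reads in mitochondrial genes made up 12.9% of ICM 25, 8.60% and 10.1% of ICM 22 and 15 and 12.3% to 13.9% of the TE libraries. ICM 25 held 6622207 reads, against 7972431 and 10686659 in ICM 15 and 22 and 6526212 to 9812871 in TE. The part of depth in these differences was not tested.

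**Figure D5:**
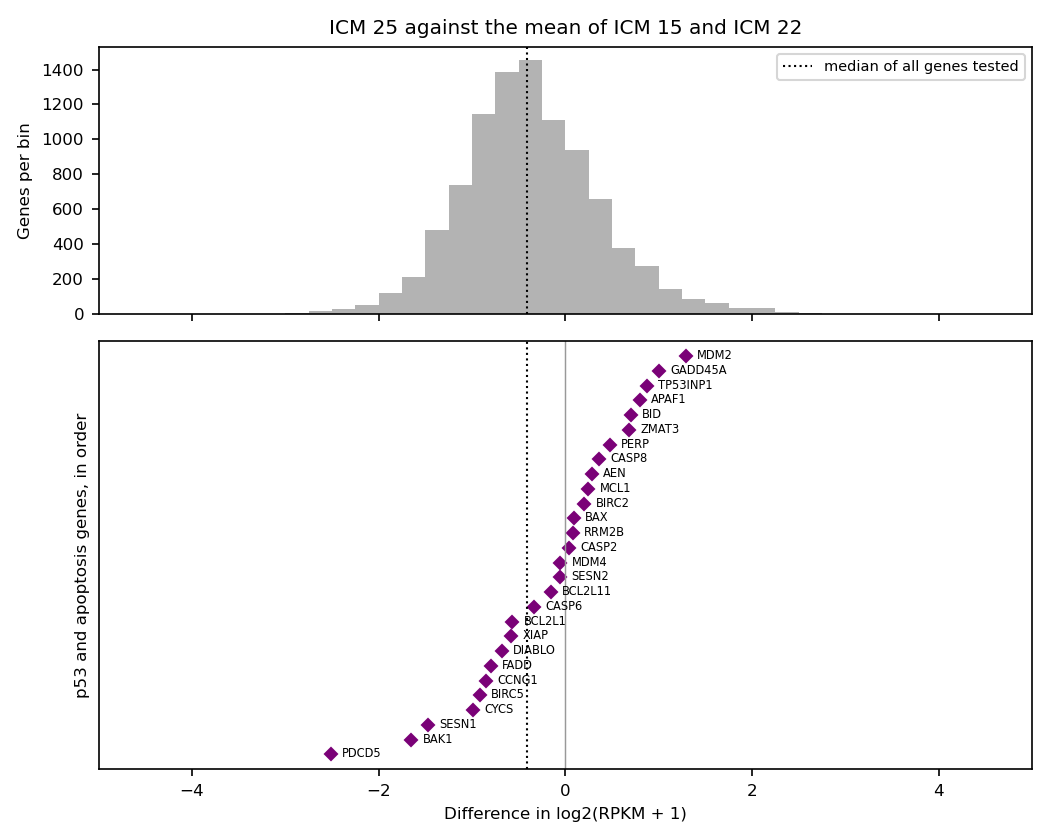
Difference of ICM 25 from the mean of ICM 15 and 22 in log2(RPKM + 1), as a histogram of all 9436 genes tested (top) and for the 28 p53 and apoptosis genes tested, in order (bottom); the dotted line is the median of all genes tested, -0.41. MDM2 and GADD45A lie at the upper end of the 28 and PDCD5, BAK1 and SESN1 at the lower end.

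In the authors' deposited table, which holds the results of DESeq on normalized counts, 7 of the 33 genes have an adjusted p under 0.05, all with a higher mean in ICM. Of all rows with a value there, 16.6% have one, 10.7% with the higher mean in ICM. These were CDKN1A, SESN2, CCNG1, MDM2, GADD45A, BIRC3 and XIAP. Of the 7, CDKN1A, MDM2, GADD45A and BIRC3 have their highest value in ICM 25 and at least 1 ICM library among the TE libraries.

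The other genes of these pathways were read from the same fit, over 5 lists with 118 rows, of which 105 were tested. For 2 the test called a higher level in ICM (PLK2 and DUSP5) and for 1 in TE (DFFA), against 0.933% of all genes in each direction (1.36% and 0.678% after rescaling by the median of ratios). The median log2 difference over the 105 was -0.11, close to the -0.15 of all genes. None of the 19 genes tested in the list of p53 regulators was called with all libraries. The methyltransferase gene SETD8 of that list held 9.78 ± 3.31 RPKM in ICM and 14.6 ± 1.49 in TE (limma adjusted p = 0.33).

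Of the 28 other p53 targets tested, 2 were called higher in ICM and none in TE, and the median log2 difference was -0.05. PLK2, a polo-like kinase induced by p53, stood at 24.6, 22.7 and 23.0 RPKM in ICM and 9.43, 5.54 and 10.6 in TE. The ICM libraries were nearly equal, ICM 25 included, and all above TE (log2 difference 1.40, SE 0.27, limma adjusted p = 0.045). DUSP5, a phosphatase of ERK that also answers to growth factor signals, held 4.82, 8.94 and 12.7 RPKM in ICM and 1.75, 1.39 and 2.56 in TE (log2 difference 1.69, SE 0.34, adjusted p = 0.047). Both calls were lost without a filter and with a pseudocount of 0.1 RPKM (limma adjusted p = 0.054 to 0.061). Each was also lost when any library other than ICM 25 was left out (0.051 to 0.27). Fits without 1 of the TE libraries called at most 1 gene in the whole table. Library weights kept both (0.016 for PLK2 and 0.0088 for DUSP5), and a filter of 5 RPKM kept PLK2 (0.048). Either rescaling and voom kept PLK2 (0.025 to 0.032) and lost DUSP5 (0.061 to 0.090).

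DFFA, which encodes the inhibitor of the nuclease that cuts DNA in apoptosis, was the 1 call among the 25 other executioner and IAP genes tested. It stood at 8.69, 7.39 and 7.33 RPKM in ICM and 18.0, 18.1 and 17.0 in TE, with little spread in either tissue (log2 difference -1.09, SE 0.22, limma adjusted p = 0.047). The call was kept without ICM 25 (limma adjusted p = 0.011), with library weights (0.0091) and with a filter of 5 RPKM (0.048). It was lost without any other library (0.088 to 0.29), where the fits without a TE library called at most 1 gene in the whole table. It was also lost after either rescaling, with voom, without a filter and with a pseudocount of 0.1 RPKM (0.054 to 0.073). None of the 20 other BCL2 family and associated genes was called, and VDAC1, a channel of the outer mitochondrial membrane, had the smallest p (98.0 ± 15.8 against 187 ± 21.4 RPKM, adjusted p = 0.092, and 0.030 without ICM 25), followed by VDAC2 (233 ± 73.7 against 367 ± 68.4, adjusted p = 0.28). Of the 13 other caspases, adaptors and death receptors, none was called. RIPK3, a kinase of necroptosis, was at 1.95 ± 1.47 against 3.47 ± 0.55 RPKM (adjusted p = 0.39).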

How the data were processed

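Per the file headers, the deposited table of 12270 rows gives RPKM for the 6 libraries. The authors' programs FastQC and DESeq are named in the submitters' processing notes, while for the aligner, the counter, the build and the annotation no name is given in the sources used here. The authors' DESeq output stands beside the RPKM: a mean signal (baseMean), the fold as a ratio of ICM to TE, log2 of that fold, and raw and adjusted p-values. RPKM times the mean signal, over the mean RPKM, gives normalized counts. These were divided by the normalized count of 1 read, fitted in each library (0.833 to 1.30). They then came out as whole reads (tolerance 0.001) in 100% of entries up to 1000 reads. Reads of amplified cDNA are not independent molecules. Strand is not stated, but none of the 33 genes overlaps another row of the table.

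The 9436 genes that reached 1 RPKM in 3 or more libraries were fitted as log2(RPKM + 1) using limma 3.58.1 under R 4.3.3, with a trend in the prior variance. Tests were two-sided, with Benjamini-Hochberg adjustment over all genes and a threshold of 0.05. A difference is ICM minus TE, and this scale understates changes of low genes. The fit was tested on simulated data. Alternatives were a pseudocount of 0.1 RPKM, no filter, a filter of 5 RPKM, rescaling by median of ratios, quantile normalization, library weights and leaving out each library. Voom on the recovered reads was chosen after seeing the data.

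Values in each library are given for genes called, those among the 14 with the smallest unadjusted p, and 11 well known genes. Of the other pathway lists, genes called, or otherwise those with the smallest p, are named, apart from some that are not reported here. The members and lists were chosen with earlier results of these data known, and the roles and the ratios after the values were seen.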

Additional observations from a re-analysis of the deposited data

How the results depend on the processing

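The comparison rests on 3 libraries a tissue, 1 of which stands apart, and low genes such as CDKN1A and CASP9 rest on few reads. Genes called over the whole table numbered 88 higher in ICM and 88 in TE. A filter of 5 RPKM gave 29 and 52, library weights 365 and 395, and leaving out 1 library 0 to 556 and 0 to 530. Calls higher in TE were 49 with a pseudocount of 0.1 RPKM and 54 with no filter. The count of 0 p53 and apoptosis genes called higher in ICM became 1 with library weights (CCNG1) and 0 to 2 with 1 library left out (2 without ICM 25), and none was called higher in TE under any alternative run. Of the other pathway genes, 2 were called higher in ICM and 1 in TE. These became 0 and 0 with a pseudocount of 0.1 RPKM or no filter, 1 and 0 with either rescaling or voom, 1 and 1 under the 5 RPKM filter, 4 and 3 with library weights, and 0 to 6 and 0 to 5 with 1 library left out.

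Of the 259 values of the 21 genes given in full under an alternative, 238 kept their direction and their side of the threshold, 3 passed it and 18 turned direction, none of them a call. None of the 21 was called with the main settings, so keeping the side of the threshold means only that a gene stayed uncalled. MCL1 turned to 0.15 with median of ratios rescaling, 0.13 with quantile normalization and 0.13 with voom, BIRC5 to 0.046 after rescaling by median of ratios, 0.041 with library weights and 0.11 with voom, and APAF1 to -0.16 with library weights. With 1 library left out, the log2 difference ran from -0.28 to 0.57 for BAK1, -0.28 to 0.47 for BCL2L1, -0.11 to 0.080 for MCL1, -0.35 to 0.22 for BIRC5, -0.16 to 0.053 for CASP9 and -0.18 to 0.29 for APAF1. The cause of these changes was not tested. A fit that leaves out 1 library keeps 2 in that tissue. The planned edgeR and DESeq2 fits were not run, since the table gives no column of reads for the libraries. Of the count methods, only voom was used on the recovered reads. No paired analysis was possible because no library number occurs in both tissues.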
